A study of Mus musculus with 23 samples.

Results

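The effect of MK2 loss on LPS-treated macrophages was measured on the 4 arrays of MK2-/- BMDM and the 4 arrays of wt BMDM that had been treated with LPS, 8 of the 23 arrays of the series, chosen by the genotype and treatment that the sample labels give. BMDM were grown with M-CSF from the femoral marrow of male mice of C57BL/6J background, and 100 ng/ml LPS was added for 120 min, in 4 independent experiments. The wt mice carried neither deletion, and those of the LPS arrays were 12, 13, 13 and 12 weeks old. MK2-/- mice lacked the kinase in all cells from the germline on, so that the marrow cells had developed without it, and were 10, 11, 12 and 13 weeks old. As background for these 8 arrays, medium alone was given to BMDM of the same cultures (4 arrays of wt and 3 of MK2-/- BMDM, the latter of mice of 10, 11 and 13 weeks), and LPS was given in the same way to MK2/3-/- BMDM, which lack MK3 in addition (4 arrays, mice of 11, 12, 14 and 12 weeks). A further 4 arrays held MK2/3-/- BMDM in medium, of mice of the same ages. Each RNA was labelled with a single dye and hybridized to an array of its own, and a level is given below as the log2 of a probe's quantile-normalized signal.

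LPS acts on macrophages through the receptor TLR4, which starts the NF-κB pathway, the interferon regulatory factors and the MAP kinase cascades. The kinase p38 of one of these cascades activates MK2 and the related kinase MK3, and MK2 is known above all for phosphorylating tristetraprolin (TTP), a protein that binds AU-rich elements in the tails of cytokine mRNAs and starts their decay. In macrophages without MK2, less of several cytokines is made, and MK2 also keeps p38 itself stable in the cell.

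The label of a macrophage was checked against marker genes. Of 12 macrophage markers 11 were matched (*Cd68* was not), and all 11 were well above background on every one of the 8 arrays, which is the mark that the scanner software gives to a spot that stands clear of its surroundings. The M-CSF receptor gene *Csf1r* was the brightest of them, at 18.31 to 18.45 in wt BMDM and 18.25 to 18.74 in MK2-/- BMDM, and its difference (MK2-/- minus wt, as for all differences below) was 0.09 with a 95% interval from -0.13 to 0.31. The other *Csf1r* probes differed by 0.76 and 0.40. At an unadjusted p under 0.05, *Lyz2* was higher as 1 of the 11 markers (9.09%, compared with 7.5% of all genes). The summed linear signal of the 11 markers was 671,088 to 834,979 on wt arrays and 705,861 to 985,188 on MK2-/- arrays, and these ranges overlapped.

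Markers of other cells were measured in the same manner. Among them, 10 stromal genes stood out, of which 9 were lower in MK2-/- BMDM, with a median difference of -1.80 and none at an unadjusted p under 0.05. Their summed signal spanned 7,430 to 180,254 on wt arrays and 3,254 to 54,315 on MK2-/- arrays, and the brightest, the smooth muscle actin gene *Acta2*, lay at 16.36, 11.64, 13.53 and 14.40 in wt and at 11.24, 10.66, 12.54 and 14.31 in MK2-/- BMDM. The spread within each group thus exceeded the difference between them, and the part of such cells in other results was not tested. Of the remaining lists, 11 neutrophil and precursor genes (brightest *Csf3r*, -0.22), 10 B cell genes (*Cd79b*, 0.25) and 6 erythroid genes (*Epor*, -0.14) had no member at an unadjusted p under 0.05, and the differences of these 3 genes changed sign with 1 array left out. Dendritic cell genes were led by *H2-Ab1* (0.68), with the receptor gene *Flt3* higher by 1.19 as 1 of 10 members (10%, compared with 7.5% of all genes at an unadjusted p under 0.05). Single arrays carried much of these 2 values, as *Flt3* was higher by 0.71 without MK2-/- array 1 and *H2-Ab1* by 0.18 without wt array 3 and 1.39 without wt array 2. T and NK cell genes were led by *Cd3e* (-0.21), with *Klrb1c* called as 1 of 11 (9.09%), and mast cell genes by *Gata2* (-0.42), with *Cpa3* and *Fcer1a* called as 2 of 8 (25%). These last 3 calls were of dim genes, since *Klrb1c* was well above background on 2 of 4 arrays in each group, *Cpa3* on 1 array and *Fcer1a* on none. *Cd3e* was at -0.38 without MK2-/- array 4 and at -0.09 without MK2-/- array 3. *Gata2*, well above background on 3 of 4 MK2-/- arrays, ranged from -0.70 to -0.12 over the alternatives. In RNA of whole cultures, fewer cells of a type and less RNA per cell cannot be told apart.

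The arrays themselves differed between the genotypes. Spots well above background made up 56.5%, 59.0%, 60.8% and 56.2% of all spots in wt BMDM and 52.5%, 49.6%, 50.6% and 50% in MK2-/- BMDM, means of 58.1% and 50.7% (exact permutation test, two-sided, p = 0.0286, the smallest that 4 against 4 arrays allow). The mean 75th percentile of the unnormalized signal was 572 in wt and 429 in MK2-/- BMDM (exact permutation p = 0.0857), whereas the median log2 signal of the spike-in probes, an RNA added in a known amount, was 7.89 and 8.04 (exact permutation p = 0.629). As all wt arrays lay on 1 slide and all MK2-/- arrays on another, slide and genotype cannot be told apart for any difference below. On MK2-/- LPS array 1 the file held no fit of the signal gradient across the array.

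The target of the deletion came first. The signal of *Mapkapk2*, the gene of MK2, was 14.84, 15.37, 14.19 and 14.67 on the wt LPS arrays and 12.00, 11.89, 11.63 and 12.30 on the MK2-/- LPS arrays. Every MK2-/- array lay below every wt array, by 2.81 on average (log2 difference -2.81, SE 0.25, adjusted p = 2.40e-05), and all 4 remained well above background. Whether this probe lies within the deleted part of the gene is not known, so that the remaining signal checks the labels only as far as all 4 arrays were low. In medium the difference was -3.31, and LPS raised the signal in both genotypes, by 2.55 in wt and 3.05 in MK2-/- BMDM (interaction of MK2 loss with LPS 0.50, a difference of these responses). The gene of the related kinase, *Mapkapk3*, differed by -0.03 (95% interval from -0.38 to 0.32) and was above 0 with arrays scaled to their 75th percentile (0.06), while in MK2/3-/- BMDM it was lower than in wt by 3.30 (log2 difference -3.30, adjusted p = 1.14e-09).

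Of 25,998 genes tested, of which 20,887 had a gene name and the rest are counted under an accession, 8 (0.0308%) differed between the LPS-treated BMDM of both genotypes at an adjusted p under 0.05. Of these, 4 (0.0154%) were higher and 4 (0.0154%) lower in MK2-/- BMDM. At an unadjusted p under 0.05 there were 1,951 genes (7.5%), compared with 1,299.9 from evenly spread p-values, and 1,057 of them were higher (4.07%) and 894 lower (3.44%). On all 4 MK2-/- arrays 567 genes (2.18%) were above all wt arrays, and 400 genes (1.54%) were below. The median difference of all genes was 0.01.

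These counts moved with single arrays and with the fit. The adjustment was passed by 18 genes without wt LPS array 3 and by 17 without MK2-/- LPS array 4 (arrays numbered in the order in which values are given), while 697 genes in place of 1,057 were higher at an unadjusted p under 0.05 without wt LPS array 1. When the fit held only the 8 LPS arrays, and not the spread within all 6 groups of the series, *Sbk3* alone of the 8 genes passed. The test of the study's methods on log2 values gave 3 genes, of which again only *Sbk3* was among the 8.

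Many of the higher genes were dim, but about as many as among all genes, while fewer of the lower genes were. Well above background on none of the 8 arrays were 5,962 of all 25,998 genes. This held for 265 of the 1,057 higher genes, and 585 were well above background on all MK2-/- arrays. It held for 65 of the 894 lower genes, and 623 were well above background on all wt arrays. A change of at least 2-fold was seen for 266 higher and 247 lower genes, of which 75 and 86 were well above background on every array of the brighter group.

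**Figure D1:**
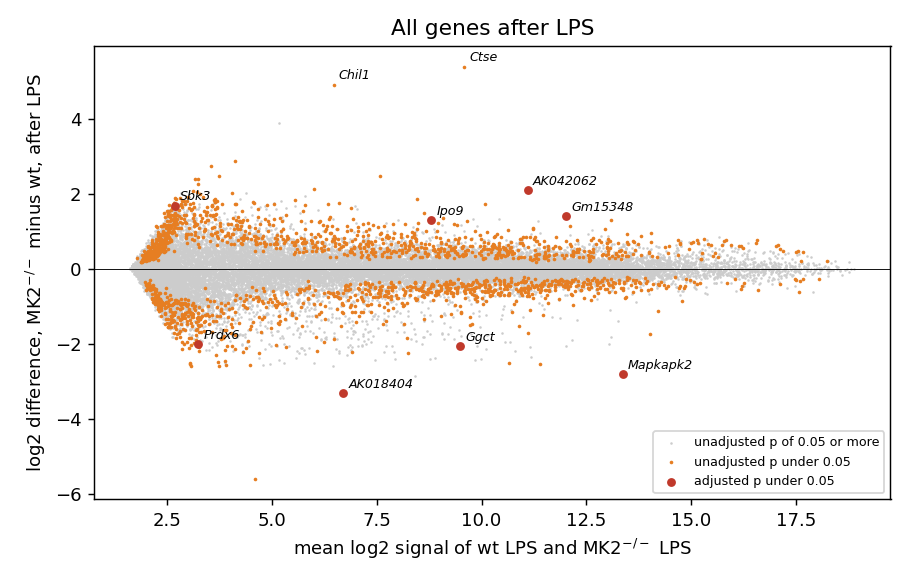
Log2 difference, MK2-/- minus wt BMDM treated with LPS (vertical axis), against the mean log2 signal of both groups (horizontal axis), 1 point per gene; orange points are the genes at an unadjusted p under 0.05 and red points the 8 at an adjusted p under 0.05. *Ctse* and *Chil1* lie highest, and many orange points above 0 sit at the dim end.

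The 8 genes were *Mapkapk2*, *Ipo9*, *Ggct*, *Gm15348*, *Prdx6*, *Sbk3* and the transcripts with the accessions AK018404 and AK042062. The transcript AK018404 was at 8.51, 8.92, 7.27 and 8.74 in wt and 5.75, 5.07, 5.35 and 4.04 in MK2-/- BMDM (log2 difference -3.31, SE 0.37, adjusted p = 2.53e-04). Its groups lay far apart, with 3 of the 4 MK2-/- arrays still well above background. AK042062 was at 9.37, 10.20, 11.15 and 9.47 in wt and 12.02, 12.27, 11.80 and 12.52 in MK2-/- BMDM (2.11, SE 0.28, adjusted p = 0.00327), a rise that a second probe of this transcript did not share (-0.06) and that did not pass with probes averaged (1.02, adjusted p = 0.232). *Ipo9*, which encodes an importin that carries proteins into the nucleus, was at 8.13, 7.58, 8.65 and 8.19 in wt and 9.70, 9.14, 9.37 and 9.57 in MK2-/- BMDM (1.31, SE 0.18, adjusted p = 0.00494). The noncoding RNA gene *Gm15348* was at 10.95, 11.52, 11.97 and 10.80 in wt and 12.56, 12.89, 12.45 and 13.02 in MK2-/- BMDM (1.42, SE 0.22, adjusted p = 0.00996, and 0.0748 and 0.059 without wt array 1 or 4). In each of these 3 transcripts that rose, the lowest MK2-/- array was above the highest wt array.

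*Ggct*, the gene of an enzyme of glutathione breakdown, stood apart on the LPS arrays. On wt LPS arrays it was at 10.35, 11.25, 10.45 and 10.01, and on MK2-/- LPS arrays at 8.59, 8.67, 8.59 and 8.0 (-2.05, SE 0.31, adjusted p = 0.00996). In medium, wt arrays were at 8.67, 8.34, 8.51 and 8.93 and MK2-/- arrays at 8.82, 8.27 and 8.71. LPS thus raised *Ggct* by 1.90 in wt BMDM, with a difference of -0.14 between LPS and medium in MK2-/- BMDM. The interaction of MK2 loss with LPS was -2.04 (at an unadjusted p under 0.05, not past the adjustment). In MK2/3-/- BMDM after LPS the gene was at 10.54, 11.07, 9.94 and 9.30, on each array above every MK2-/- array.

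Both remaining genes were dim. *Sbk3*, which encodes a kinase named for its similarity to an SH3-binding kinase, rose from 1.86, 1.88, 1.78 and 1.82 in wt to 3.62, 3.56, 3.32 and 3.64 in MK2-/- BMDM (adjusted p = 2.53e-04), but on none of the 8 arrays was it well above background, so that no fold is given. With a background correction that holds low signals above 0 (normexp), its difference was 0.11. The probe used for the antioxidant enzyme gene *Prdx6* was at 4.34, 3.96, 4.15 and 4.5 in wt and 1.88, 2.50, 2.20 and 2.36 in MK2-/- BMDM, where no array was well above background. With MK2-/- signals raised to the lowest signal well above background on their array, wt BMDM were at least 1.00-fold higher, and hence no fall is established. Where a dim group is said below to differ by at least some value, that value rests on this limit of each array. It is no bound under another limit or background correction. The other 3 *Prdx6* probes, all well above background on all arrays, differed by 0.29, 0.14 and 0.17, and with arrays scaled to their 75th percentile another probe was chosen and *Prdx6* was higher by 0.39. The adjusted p of 0.0191 for the dim probe rose to 0.105 and 0.0613 without MK2-/- array 1 or 3 and to 0.0916 and 0.112 without wt array 1 or 4.

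**Figure D2:**
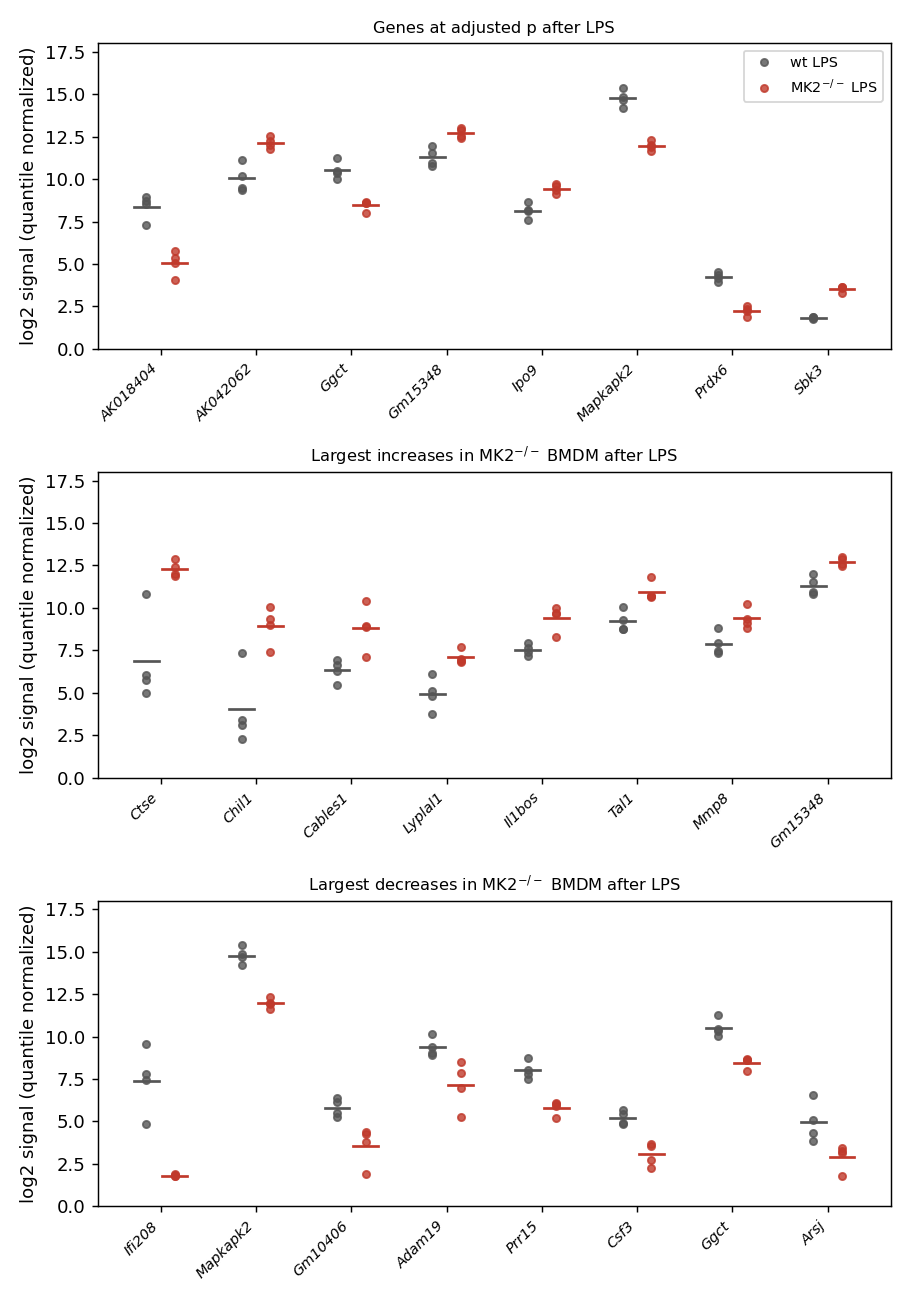
Log2 quantile-normalized signal on each LPS array of wt (grey) and MK2-/- BMDM (red), with bars for group means, for the 8 genes at an adjusted p under 0.05 and for the genes with the largest differences in each direction. The genes with the largest differences were chosen among those without overlap of the groups, so that their separation was fixed by the choice. In the 8 genes at an adjusted p under 0.05 the groups do not overlap either. For *Ctse* and *Chil1* 1 wt array lies near the MK2-/- arrays.

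By size, the named genes that were higher in MK2-/- BMDM with no overlap of the groups, and well above background throughout the brighter group, were led by *Ctse*, which encodes the aspartic protease cathepsin E. It was at 4.95, 6.01, 10.81 and 5.73 in wt and 12.88, 11.99, 11.88 and 12.38 in MK2-/- BMDM after LPS (5.41, SE 1.09, adjusted p = 0.124), and in medium at 5.05, 6.02, 11.11 and 6.20 in wt and 13.11, 12.63 and 12.47 in MK2-/- BMDM (5.64). In both treatments wt culture 3 stood apart from the other wt cultures and near the MK2-/- level. With wt LPS array 3 left out, as each array was in turn, the difference was 6.72 (adjusted p = 0.00166). This larger value follows from leaving out the wt array nearest to MK2-/- BMDM. The next gene was *Chil1*, which encodes a chitinase-like secreted protein, at 2.28, 3.37, 7.34 and 3.07 in wt and 9.34, 10.03, 8.97 and 7.39 in MK2-/- BMDM (adjusted p = 0.124, and 0.00366 without wt LPS array 3). Only 1 of its 4 wt arrays, again replicate 3, was well above background. With wt signals raised to the lowest signal well above background on their array MK2-/- BMDM were at least 20.8-fold higher. This limit depended on wt array 3, whose signal of 7.34 lowers it. Over the alternatives the log2 difference of *Chil1* went down to 2.53.

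Culture 3 of the wt BMDM lay nearest to the MK2-/- mean in further genes, which was seen only after the values had been examined. Of the 21 genes named for an adjusted p or for size, the wt LPS array nearest to the MK2-/- mean was that of culture 3 for 10, and among medium arrays for 14. For *Mapkapk2* itself wt culture 3 was the lowest of the wt cultures after LPS (14.19) and in medium (11.49, with 12.46, 12.64 and 12.28 in the others), though above all MK2-/- arrays of the same treatment, and for AK018404 it was lowest as well (7.27 and 7.97). When both arrays of this culture were left out, 21 genes passed the adjustment in place of 8, all 8 among them. This count is no test of its own, as the culture was left out for its values. The reason for its position was not tested.

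The other genes named for size and higher in MK2-/- BMDM, apart from *Gm15348*, were *Cables1* (2.49), *Lyplal1* (2.14), *Il1bos* (1.88), *Tal1* (1.75) and *Mmp8* (1.5). *Il1bos*, a noncoding RNA that lies opposite the interleukin-1β gene, was well above background on all LPS arrays and on no medium array of either genotype, so that its response to LPS was at least 4.09 in wt and at least 5.85 in MK2-/- BMDM on the log2 scale. The remaining 4 also had differences above 0 in medium, *Cables1* of 2.17, *Lyplal1* of 2.05, *Tal1* of 0.80 and the collagenase gene *Mmp8* of 1.56. For *Tal1* in medium the groups overlapped and the unadjusted p was not under 0.05. None of these 5 genes passed the adjustment, but *Il1bos* did without MK2-/- LPS array 4 (2.26, adjusted p = 0.0472), with normexp background (0.0468) and with signals raised to 1 detection limit (0.0369), and *Lyplal1* did without both arrays of wt culture 3 (2.53, adjusted p = 0.0228). With the replicate number as a block, which no label ties to 1 experiment, *Lyplal1* (0.0266), *Tal1* (0.0087) and *Mmp8* (0.00739) passed.

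Among the genes named for size and lower in MK2-/- BMDM, the interferon-inducible *Ifi208* fell furthest, from 7.43, 9.57, 7.77 and 4.83 in wt to 1.88, 1.82, 1.76 and 1.78 in MK2-/- BMDM, where no array was well above background, so that wt BMDM were at least 8.98-fold higher (adjusted p = 0.222). This limit depended on single wt arrays, which spread from 4.83 to 9.57. The 3 other *Ifi208* probes were well above background on all arrays and differed by -0.63, -3.32 and -1.03, so that the size of the fall depended on the probe. For *Prr15* the arrays were at 8.76, 8.01, 7.51 and 7.79 in wt and 6.05, 5.89, 6.09 and 5.20 in MK2-/- BMDM (-2.21, adjusted p = 0.0627). *Prr15* passed with arrays scaled to their 75th percentile (0.0343), with age in the fit (0.0165), and with the culture as a random block (0.0322) or the replicate number as a block (0.00654). It also passed with only probes well above background in a whole group (0.0354) or on all 8 arrays (0.0336), without wt LPS array 3 (0.0385) and without both arrays of wt culture 3 (0.0279). *Adam19*, which encodes a membrane metalloprotease, differed by -2.23. *Gm10406*, the G-CSF gene *Csf3* and *Arsj* were well above background on all wt and no MK2-/- arrays. With the limit of each array, wt BMDM were at least 2.91-fold, 1.93-fold and 1.65-fold higher. Over the alternatives their log2 differences came as near 0 as -0.48, -0.52 and -0.50, so that the size of these falls is not settled.

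The place of these genes in the genome was then examined, since a gene deletion is bred together with its surroundings. Among all 20,887 named genes 5.58% lay on the chromosome of *Mapkapk2*, compared with 3 of the 6 named genes at an adjusted p under 0.05, of which 1 was *Mapkapk2* itself and 1 the dim probe of *Prdx6*. On it lay 7 of the 19 named genes (36.8%) that were picked out by adjusted p or size (*Mapkapk2*, *Ctse*, *Chil1*, *Ipo9*, *Lyplal1*, *Prdx6* and *Ifi208*). In gene order *Ctse* lay 15, *Chil1* 98, *Ipo9* 141, *Prdx6* 487, *Ifi208* 813 and *Lyplal1* 1,054 places from *Mapkapk2*. Most of them are thus not close neighbours of the deleted gene. Of all named genes at an unadjusted p under 0.05, 8.21% of the higher and 6.22% of the lower lay there. Of the genes well above background on all MK2-/- LPS arrays 5.78% lay there, compared with 9 of the 51 (17.6%) that were also higher at least 2-fold and at an unadjusted p under 0.05. Of those well above background on all wt LPS arrays it was 5.71%, compared with 10 of the 78 (12.8%) that were lower in this way. The alternatives gave other shares of named genes at an adjusted p under 0.05 on this chromosome. They were 2 of 8 with 75th percentile scaling, 2 of 7 with age and 2 of 9 without MK2-/- LPS array 3. They were 4 of 7 with signals under 5 set to 5, 0 of 3 with the test of the study's methods on log2 values and 9 of 18 without both arrays of wt culture 3. Among the 19 genes on it that changed at least 2-fold wt culture 3 was the nearest wt culture to MK2-/- BMDM for 10 after LPS and for 12 in medium. For the other 110 such genes elsewhere these numbers were 32 and 39, and there wt culture 2 was the nearest after LPS for 51 and in medium for 31.

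Close to the deleted gene, 51 of the 100 genes on either side of *Mapkapk2* were measured, and 8 of them (15.7%, compared with 7.5% of all genes) were at an unadjusted p under 0.05 after LPS. Higher were *Ctse*, which is 15 places from *Mapkapk2*, and *Elk4* (0.53). Lower were *Mcm6* (-1.10), *Dars* (-0.64), *Yod1* (-0.57), the interleukin-10 gene *Il10* (-1.53), *Slc41a1* (-0.66) and *Tmcc2*. The last was well above background on all wt and no MK2-/- arrays and, with the limit of each array, at least 1.86-fold higher in wt BMDM. Over the alternatives the log2 difference of *Tmcc2* came as near 0 as -0.41. In medium *Ctse*, *Elk4*, *Mcm6* and *Dars* differed in the same direction by 5.64, 0.47, -1.10 and -0.70, whereas *Yod1*, *Il10*, *Slc41a1* and *Tmcc2* differed by 0.00, 0.19, -0.02 and -0.05. *Il10* is the direct neighbour of *Mapkapk2* in this order, and an effect of the kinase on it and an effect of the altered locus cannot be told apart by these arrays. Elsewhere in the genome, 5 of 8 genes measured within 10 places of *Cables1* were at an unadjusted p under 0.05, compared with 7.5% of all genes. They were *Gata6*, *Riok3*, *Rmc1*, *Npc1* and *Ankrd29*, of which 1 changed at least 2-fold, and *Npc1* was lower where *Cables1* was higher. Such windows were drawn around genes picked by their values, and this one had the most calls, so that it is no test of its own. On a chromosome other than that of *Mapkapk2*, *Nod1* lies 2 places and *Prr15* 14 places from *Ggct*, which was seen only after the values had been examined. Of 29 other genes measured within 30 places of *Ggct*, 5 were lower and 2 were higher at an unadjusted p under 0.05 (24.1%, compared with 7.5% of all genes). The 5 include *Nod1* and *Prr15*, which prompted this count, so that it is no test of its own. Within 10 places of *Ggct* 1 of 12 genes measured was called, *Nod1*.

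**Figure D3:**
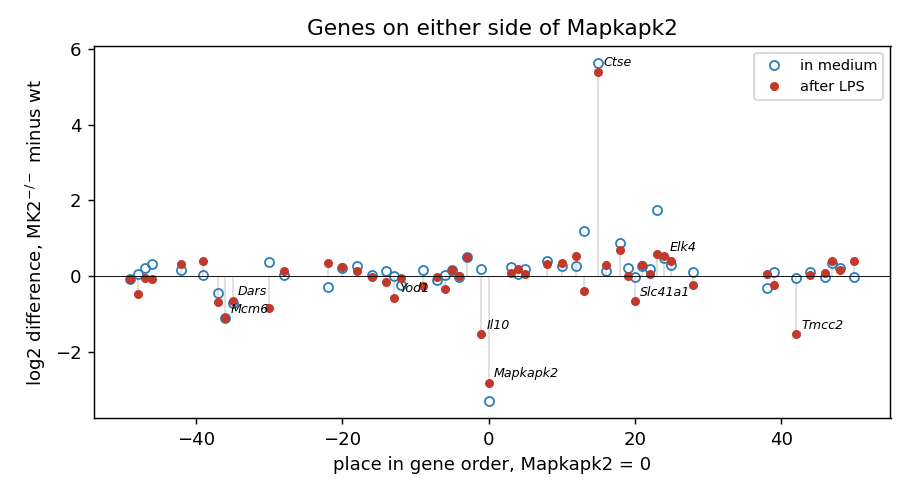
Log2 difference, MK2-/- minus wt BMDM, in LPS-treated cells (red) and in medium (blue circles) for the measured genes among the 50 on either side of *Mapkapk2*, by their place in the gene order. *Ctse* lies far above 0 in both treatments, and *Il10* lies below 0 after LPS and near 0 in medium.

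The difference in medium was tested to see what was present without LPS. In medium 2 genes (0.00769%), *Mapkapk2* and AK018404, passed the adjustment, and 890 (3.42%) were at an unadjusted p under 0.05. With 1 medium array left out, 7 genes passed without MK2-/- array 1, 5 without MK2-/- array 2, and 1 without wt array 2 or 4. Of the 1,951 genes at an unadjusted p after LPS, 231 were so in medium too, 11.8% of the former and 26.0% of the latter, with 222 in the same direction and 9 in the opposite direction. These comparisons share no array, but the LPS and medium arrays of a genotype come from the same cultures. The interaction of MK2 loss with LPS passed the adjustment in 1 gene (0.00385%), *Sbk3*, which was well above background on no array of any group, so that this is not read as a change. No gene passed the interaction when any 1 of 10 of the 15 arrays was left out, whereas 2 genes passed without MK2-/- LPS array 3. There were 497 genes (1.91%) with an interaction at an unadjusted p under 0.05, of which 280 were also among the 1,951.

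The genes that LPS moves were then set apart, by the response in MK2/3-/- BMDM, whose levels are no part of the difference between MK2-/- and wt BMDM. Their arrays did enter the normalization and the variance of the fit. Of 2,045 genes induced at least 2-fold there (adjusted p under 0.05), 10.1% were higher and 1.61% lower in MK2-/- than in wt BMDM after LPS at an unadjusted p under 0.05, with a median difference of 0.22. Of 1,901 genes repressed at least 2-fold, 1.47% were higher and 11.3% lower, with a median of -0.15, and of the other 22,052 genes 3.73% were higher and 2.93% lower. As MK2/3-/- BMDM lack MK2 too, a gene whose LPS response is raised by MK2 loss enters the induced class by that alone. In medium, the median differences of the induced and the repressed genes were 0.12 and 0.07. Classes drawn from the response of wt BMDM, which share the wt LPS arrays with the comparison, gave 5.82% higher and 3.76% lower among 1,408 induced genes and 3.8% higher and 8.35% lower among 1,317 repressed genes, with 3.97% and 3.14% among the others. Whether the classes differed was not tested.

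Of the p38 and MK2 pathway, 23 genes were measured, of which 1 was higher and 2 were lower at an unadjusted p under 0.05 (13%, compared with 7.5% of all genes). Beside *Mapkapk2* these were the p38δ gene *Mapk13* (-1.02, well above background on 2 of 4 MK2-/- arrays, and -0.63 without wt array 1) and *Mknk1* (0.51), the gene of another kinase that is activated by p38. The gene of p38α, *Mapk14*, named for its role after the values had been seen, differed by 0.19 (95% interval from -0.22 to 0.59, and 0.01 without wt array 4). None of 10 MAP kinase phosphatase genes was at an unadjusted p under 0.05, the closest being *Dusp1* (-0.58, 95% interval from -1.20 to 0.05) and *Dusp7* (-0.71, interval from -1.54 to 0.11).

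Of 13 genes for proteins that bind AU-rich elements or act beside them, 4 were lower and none was higher at an unadjusted p under 0.05, with a median difference of -0.21. These 4 made up 30.8% of the list, while 3.44% of all genes were lower. With arrays scaled to their 75th percentile 2 were lower, with a median of -0.08. *Zfp36l1*, which encodes a relative of TTP, was at 11.79, 12.25, 12.92 and 13.65 in wt and 10.23, 9.28, 9.20 and 11.83 in MK2-/- BMDM after LPS (-2.52, SE 0.50, adjusted p = 0.115). The highest MK2-/- array reached the lowest wt array, and with this array left out the difference was -3.09 with an adjusted p of 0.0045. In medium *Zfp36l1* differed by -0.17, and its response to LPS was -3.45 in MK2-/- BMDM (adjusted p = 8.95e-05) and -1.11 in wt BMDM, where it did not pass the adjustment (0.153), with an interaction of -2.35 (at an unadjusted p under 0.05). The other relative, *Zfp36l2*, differed by -1.18 (-0.77 without wt array 1), the stabilizing factor *Elavl1* by -0.97, with -0.16 on its second probe, and the stress granule protein gene *Tial1* by -0.28. The TTP gene *Zfp36* itself, named for its role, was at 11.15, 12.16, 11.45 and 10.09 in wt and 10.60, 11.03, 10.70 and 10.75 in MK2-/- BMDM (-0.44, 95% interval from -1.18 to 0.30, and -0.12 without wt array 2).

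Of 23 known targets of TTP, 3 were lower and none was higher at an unadjusted p under 0.05 (13%, while 3.44% of all genes were lower). The median was -0.14, and it was 0.02 with arrays scaled to their 75th percentile, -0.31 with age in the fit and -0.30 without both arrays of wt culture 3. The 3 genes were *Il10*, the growth factor gene *Vegfa* (-1.08) and the early survival gene *Ier3* (-0.90). Single arrays carried part of each value. Without wt array 1 *Vegfa* was at -0.72 and *Ier3* at -0.51, and without MK2-/- array 1 *Il10* was at -0.99. *Il10* was at 11.73, 12.10, 11.51 and 11.34 in wt and 8.52, 10.86, 10.07 and 11.10 in MK2-/- BMDM after LPS (-1.53, SE 0.47, adjusted p = 0.452). The groups did not overlap, but the MK2-/- arrays spread over more than 2 log2 units. LPS induced *Il10* by 5.85 in wt and 4.13 in MK2-/- BMDM (interaction -1.71, at an unadjusted p under 0.05). The tumour necrosis factor gene *Tnf* was at 17.35, 17.98, 17.37 and 17.24 in wt and 17.35, 17.33, 17.15 and 17.53 in MK2-/- BMDM (-0.14, 95% interval from -0.92 to 0.63, and 0.09 with arrays scaled to their 75th percentile). *Il6* differed by 0.85 (interval from -0.95 to 2.66), and by 0.54 without wt array 4 and 1.33 without wt array 2. *Tnf* and *Il6* were named for their role.

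Of 37 genes of interferon β and its response 2 were lower and none was higher at an unadjusted p under 0.05 (5.41%, compared with 7.5% of all genes). The interferon β gene *Ifnb1* was at 14.58, 15.54, 14.10 and 15.26 in wt and 12.22, 13.08, 12.56 and 14.75 in MK2-/- BMDM after LPS (-1.72, SE 0.45, adjusted p = 0.334). Of the MK2-/- arrays, 3 lay below all wt arrays and array 4 among them, and without array 4 the difference was -2.25 with an adjusted p of 0.0289. In medium no array of either genotype was well above background, and the response to LPS was at least 11.44 in wt and at least 9.59 in MK2-/- BMDM on the log2 scale. The interferon-induced ubiquitin ligase gene *Herc6* was lower by 1.70 (log2 difference -1.70), but higher by 0.83 on its other probe. Of the 37 members, 28 were above 0, as were 13,431 of all 25,998 genes. Their median was 0.22 after LPS and 0.19 in medium, compared with 0.01 and 0.03 over all genes. After LPS it was 0.07 with age in the fit and 0.12 with the test of the study's methods on linear values.

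No cytokine or chemokine gene passed the adjustment. Of 27 cytokine and receptor genes, *Il12a* was higher and *Il10* and *Csf3* were lower at an unadjusted p under 0.05. As *Il12a* was well above background on 1 of 4 wt and 2 of 4 MK2-/- arrays, no fold is given for it. Of 20 chemokine genes *Ccl24* (1.02) and the neutrophil attractant *Cxcl5* (1.05) were higher. These were 11.1% and 10% of the lists, compared with 7.5% of all genes. Of 20 genes of NF-κB and its inhibitors 2 were higher, the kinase genes *Ikbkb* (0.46) and *Irak3* (0.37, and 0.21 without wt array 4), which is 10% of the list. Above 0 were 17, as were 13,431 of all 25,998 genes, and the median was 0.24 after LPS and 0.23 in medium. Of 22 immediate-early genes, *Ier5* (0.76), *Atf3* (0.70) and *Nr4a3* were higher and *Ier3* was lower (18.2%). *Nr4a3* was well above background on 3 of 4 wt arrays, and with wt signals raised as above it was higher by at least 1.14. Its difference was 0.74 without wt array 4 and 2.13 without wt array 2. Of 21 feedback and resolution genes *Il10* and the adenosine receptor gene *Adora2b* (-0.70, with -0.36 on its other probe) were lower (9.52%).

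Of the 12 genes that the study followed by rtPCR in wt, MK2-/- and MK2/3-/- BMDM, 11 were matched (*Il12b* was not). At an unadjusted p under 0.05, 3 were lower, *Nod1*, *Ifnb1* and *Il10* (27.3%, while 3.44% of all genes were lower). *Nod1*, the gene of an intracellular sensor of bacterial cell wall fragments, was at 11.36, 12.93, 12.35 and 10.93 in wt and 8.78, 11.06, 9.29 and 8.47 in MK2-/- BMDM (-2.49, SE 0.55, adjusted p = 0.188). Its MK2-/- array 2 overlapped the wt arrays, and without it the difference was -3.05 with an adjusted p of 0.0447. The response of *Nod1* to LPS was 2.51 in wt BMDM (adjusted p = 0.00287) and 0.63 in MK2-/- BMDM, where it did not pass the adjustment (0.564), with an interaction of -1.89 (at an unadjusted p under 0.05). Of the other 8, *Il4ra* (-0.72, and 0.59 on its other probe) and *Cxcl2* (-0.54, with no overlap of the groups) were furthest below 0, and *Cxcl9* (0.68), *Hdc* (0.60), *Serpina3f* (0.58), *Il19* (0.51) and *Cxcl3* (0.33) were above 0, with *C1ra* at -0.07. Without wt array 4 *Cxcl9* was at -0.21 and *Serpina3f* at -0.17, and *C1ra* was at 0.24 without MK2-/- array 4. *Cxcl3* was at -0.25 with the age of the mice in the fit and at 0.69 without MK2-/- array 4. *Hdc* ranged from 0.14 without wt array 4 to 1.22 without MK2-/- array 4, and *Il19* from 0.21 without MK2-/- array 2 to 0.86 without wt array 2.

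The MK2/3-/- LPS arrays were compared with the same wt LPS arrays, so that their values are only set beside those of MK2-/- BMDM. For *Mapkapk2*, AK018404, AK042062, *Ipo9*, *Gm15348* and *Ctse* the differences of MK2/3-/- from wt BMDM were -3.01, -3.71, 2.14, 1.53, 1.34 and 5.13, each in the direction seen for MK2-/- BMDM. For *Ggct*, *Prr15*, *Nod1* and *Herc6* they were -0.30, -0.78, 0.36 and -0.01, and for *Il10*, *Ifnb1*, *Zfp36l1* and *Adora2b* they were -3.22, -1.18, -1.87 and -1.77. Whether MK2/3-/- and MK2-/- BMDM differed in these genes was not tested.

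Metabolic and housekeeping pathways were followed as well. Of 19 genes of glycolysis and HIF-1 targets 5 were lower and none was higher at an unadjusted p under 0.05. They were *Aldoa* (-0.31), *Bnip3* (-0.49, with -0.33 and -0.17 on its other probes), *Pfkl* (-0.46), *Eno1* (-0.44) and *Pgam1* (-0.37). Of the 19, 16 were below 0, with a median of -0.29. Of 18 cholesterol synthesis genes 2 were higher, *Cyp51* (0.91, and 0.58 without wt array 1) and, on 1 of its 2 probes, the regulator gene *Srebf2* (0.46, with -0.26 on the other probe), and 17 were above 0, with a median of 0.43. Of all 25,998 genes 13,431 were above 0 and 12,567 below. In medium the median of glycolysis and HIF-1 targets was -0.16 and that of cholesterol synthesis 0.17. These 5 and 2 calls correspond to 26.3% and 11.1% of the members, compared with 7.5% of all genes. They moved with the fit. For glycolysis 2 of 19 were lower with 75th percentile scaling or with only the groups compared. For cholesterol synthesis 9 of 18 were higher with age, 6 without wt culture 3 and 1 with only the groups compared. Of 20 cell cycle genes *Ccne1* (-0.99, with -0.32 on its second probe) and the replication genes *Mcm6* and *Mcm2* (-0.58) were lower (15%). Of 21 lysosomal genes *Lamp1* was higher (0.20) and *Ctsl* (-0.56) and *Npc1* (-0.37, and -0.22 without MK2-/- array 2) were lower (14.3%). The macrophage marker *Lyz2*, which encodes lysozyme, was higher by 0.65.

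**Figure D4:**
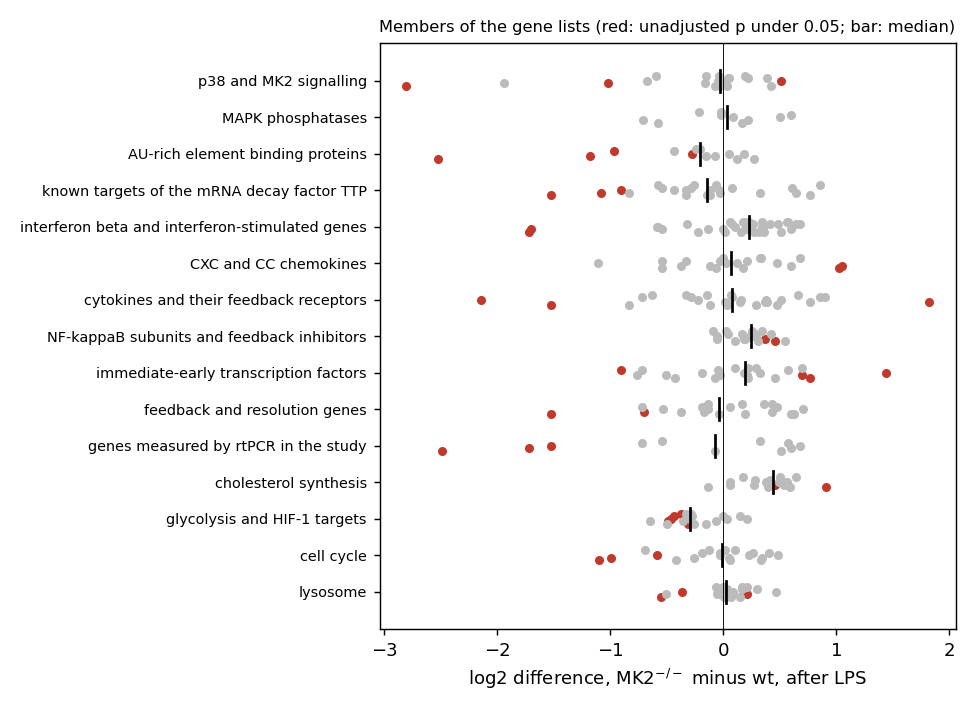
Log2 difference, MK2-/- minus wt BMDM treated with LPS, of every measured member of each gene list, with red points for members at an unadjusted p under 0.05 and a bar at the median of the list. Among the lists shown, the medians of cholesterol synthesis (0.43) and of glycolysis and HIF-1 targets (-0.29) lie furthest from 0 in the main fit. With 75th percentile scaling that of glycolysis (-0.17) was nearer 0 than several others. With age in the fit that of glycolysis (-0.25) was nearer 0 than that of the targets of TTP (-0.31).

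Promoters were searched on both strands for motifs of factors that act downstream of TLR4, in the 16,553 genes with a promoter sequence (300 bases around the start of transcription) in the RefSeq table. The interferon response motif (GAAA, any 2 bases, GAAA) was held by 3.94% of all promoters, 3.42% of those of higher and 4.02% of those of lower genes, and a κB motif by 10.7%, 10.4% and 10.7%. A CArG box, the motif of serum response factor, was held by 1.70%, 1.56% and 1.08%, and the cAMP response motif by 2.67%, 3.73% and 1.39%. The promoters of 3 genes named above that held such a motif, none of which passed the adjustment, are shown for the place of the motif, from RefSeq on the build GRCm38.p6, 5′ to 3′ on the strand of the gene and with the motif in capitals. That of *Ifnb1* (chr4:88522745-88523044, minus strand) and that of *Chil1* (chr1:134181906-134182205, plus strand) hold a κB motif, and that of *Ifi208* (chr1:173673415-173673714, plus strand) holds the interferon response motif. A match describes the sequence and does not show that a factor binds there.
Ifnb1: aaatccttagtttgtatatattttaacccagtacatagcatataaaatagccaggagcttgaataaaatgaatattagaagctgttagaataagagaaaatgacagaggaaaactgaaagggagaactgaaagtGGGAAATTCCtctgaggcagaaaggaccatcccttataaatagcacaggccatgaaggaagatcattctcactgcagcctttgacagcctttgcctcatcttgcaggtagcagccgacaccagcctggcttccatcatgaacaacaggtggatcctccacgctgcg
Chil1: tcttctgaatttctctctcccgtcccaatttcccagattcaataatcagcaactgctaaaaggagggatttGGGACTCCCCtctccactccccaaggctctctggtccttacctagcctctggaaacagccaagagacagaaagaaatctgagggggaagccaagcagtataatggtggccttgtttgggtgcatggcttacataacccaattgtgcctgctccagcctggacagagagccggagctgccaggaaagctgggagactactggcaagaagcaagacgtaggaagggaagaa
Ifi208: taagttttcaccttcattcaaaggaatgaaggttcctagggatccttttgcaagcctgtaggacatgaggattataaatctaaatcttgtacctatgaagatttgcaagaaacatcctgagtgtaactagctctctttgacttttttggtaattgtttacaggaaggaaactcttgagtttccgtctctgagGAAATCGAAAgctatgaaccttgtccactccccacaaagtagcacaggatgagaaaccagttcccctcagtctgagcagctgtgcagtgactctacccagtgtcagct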

How the data were processed

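RNA of 23 BMDM samples had been hybridized to Agilent 8x60K arrays, 1 per sample. The signal intensity of each spot was deposited as Agilent Feature Extraction wrote it, on the linear scale, background-subtracted and detrended per the file headers and not normalized between arrays. The log2 values of the deposited table had been quantile normalized and median-centred per probe by the authors and served as an alternative. Spots that the scanner software marked as faulty and control spots were left out, spots of a probe were averaged, and log2 signals were quantile normalized over all 23 arrays. Probes with only a TIGR consensus name (522 of 55,681) were left out. For each gene the probe with the largest LPS response in wt BMDM was used, a choice that draws on the wt LPS arrays and so favours lower values in MK2-/- BMDM for genes with several probes.

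Tables were read with data.table, version 1.17.8, and differences tested by limma 3.58.1 under R 4.3.3, with the 6 groups as terms, moderated variances without a trend, and the Benjamini-Hochberg adjustment taken over 25,998 genes (threshold 0.05). The median SE of a difference was 0.30, which with 4 arrays per group limits the precision. Array measures were compared by two-sided exact permutation tests. Figures and motif searches used Python 3.11.15 and matplotlib 3.10.9. The normalization and the probe choice were checked on made-up tables and the test on 5 sets of simulated data, where 2.65% to 8.26% of the called genes were false. The simulated arrays were independent and held no slide or culture effect, so that this share does not carry over to the measured arrays.

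LPS and medium arrays of the same culture come from the same animals, and their deviations from the group means correlated by 0.219 to 0.566 in wt and 0.224 to 0.305 in MK2-/- BMDM, where medium array 3 was taken to be of culture 4 by the letter in its label and the age of the mouse. The culture as a random block was therefore tried as well. The rule for named genes took the 2 kinase genes, genes at an adjusted p under 0.05 after LPS, in medium or in the interaction, in each direction the 8 largest changes among genes with a gene name, at an unadjusted p under 0.05, without overlap and with no dim array in the brighter group, list members at an unadjusted p under 0.05 (and at least 2 per list), the rtPCR genes, neighbours of *Mapkapk2* at an unadjusted p under 0.05, and the brightest markers with those at an unadjusted p under 0.05, 84 genes in all. A further 4 (*Zfp36*, *Tnf*, *Il6* and *Mapk14*) were named for their role, outside the rule and after the values had been seen. Members and lists were chosen with earlier results of these data known. Alternatives had been planned, and 6 more were added after the data had been seen.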

Additional observations from a re-analysis of the deposited data

Results flagged for a closer look

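Among 182 groups of 4 arrays, of named genes and of array quality measures, 5 had an array far from the others by its gap to the nearest value. Chance gives such a gap in about 1 of 20 groups, so that 5 of 182 is no more than chance gives. *Dusp7* was lowest on the second wt LPS array, at 8.04 with 8.23 to 8.26 on the others. *Flt3* was highest on the first MK2-/- LPS array, at 8.26 with 6.32 to 6.38 on the others. *Ggct* was lowest on the fourth MK2-/- LPS array, at 8.0 with 8.59 to 8.67 on the others. *Mapk14* was lowest on the fourth wt LPS array, at 8.67 with 9.33 to 9.44 on the others. *Tal1* was highest on the second MK2-/- LPS array, at 11.83 with 10.63 to 10.71 on the others. For *Sbk3* the fit gave an interaction of MK2 loss with LPS of 1.86 that passed the adjustment, but this gene was well above background on no array of any group, and the value is not read as a change.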

How the results depend on the processing

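With the deposited log2 values the same number of genes (8) passed the adjustment after LPS as with the scanner signals, and with TIGR entries kept (8), signals under 5 set to 5 (9), the probe with the highest mean (8), the culture as a random block (9), age (9), 75th percentile scaling (10) or normexp background (10) the number stayed within 1.5 times of it. The number was 1 with only the groups compared in the fit, 3 and 2 with the methods' test on log2 and linear values, and 21 without both arrays of wt culture 3. Leaving out 1 array gave 6 to 18 genes. Higher genes at an unadjusted p numbered 1,622 with 75th percentile scaling, 692 with only the groups compared, 2,665 with low signals raised to the limit of each array, and 697 to 1,191 with 1 array left out. They numbered 669 of 16,317 genes tested with only probes well above background in a whole group. With only probes well above background on all 8 LPS arrays they numbered 624 of 13,997. Both filters tested fewer genes than the 25,998 of the main fit, so that these counts show no smaller share. Lower genes numbered 586 of 13,997 genes tested with probes well above background on all 8 arrays, a larger share than 894 of 25,998. They numbered 530 with the methods' test on linear values and 533 with the limit of each array. These limits differ between arrays, at 3.15 to 3.74 on wt and 3.63 to 4.55 on MK2-/- LPS arrays, so that raising signals to them moves dim genes up in MK2-/- BMDM, and 9 genes passed when 1 limit was used for all arrays.

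In medium, 1 gene passed with only named genes or only probes well above background on all 8 LPS arrays, 0 with only the groups compared or with either form of the methods' test, 8 without wt culture 3, and 1 to 7 with 1 array left out. For the interaction, 0 genes passed with 75th percentile scaling, normexp background, either filter on dim probes, only the groups compared, trend and robust moderation, both forms of the methods' test, the limit of each array, and without wt culture 3 or the arrays that lack a gradient fit, and 0 to 2 with 1 array left out.

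Cultures of wt and MK2-/- BMDM share only a number. The study describes 4 experiments with a wt baseline in each, but no label says that equal numbers stand for 1 experiment. Deviations of same-numbered LPS arrays correlated by -0.0375 to 0.434, with 2 of 4 pairs above 0.1, and those of differently numbered arrays by -0.321 to 0.147. Over detected genes these ranges were -0.0253 to 0.780, highest for number 2, and -0.632 to 0.460. Not every array correlated best with its own number. With the number as a replicate block 25 genes passed the adjustment, among the named genes also *Chil1* (0.0184), *Lyplal1* (0.0266), *Tal1* (0.0087), *Mmp8* (0.00739), *Prr15* (0.00654) and *Zfp36l1* (0.0131). The random block of the culture (consensus correlation 0.241) added *Prr15* (adjusted p = 0.0322) and changed no other call of a named gene at an adjusted p.

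Of 88 named genes 74 kept their direction in all alternatives, and 3 dim ones (*Sbk3*, *Cpa3* and *Fcer1a*) fell to 0 in some. *Mapkapk3* changed to 0.0576 with 75th percentile scaling, 0.0259 with age and 0.0838 without wt culture 3 (-0.109 to 0.0838 with 1 array left out), and *Tnf* to 0.0858 with 75th percentile scaling (-0.227 to 0.0205). *Prdx6* changed to 0.39 with 75th percentile scaling, and to 0.29 with the probe with the highest mean and with only probes well above background on all 8 LPS arrays, since another of its probes is then used. *Srebf2* changed to -0.26 with the probe with the highest mean, and *Cxcl3* to -0.25 with age. *Epor* changed to 0.000409 with age, 0.0250 without the arrays that lack a gradient fit and 0.0856 without wt culture 3 (-0.292 to 0.0856), and *Cd79b* to -0.0284 without the arrays that lack a gradient fit (-0.0610 to 0.531). With 1 array left out, *C1ra* ranged from -0.28 to 0.24, *Csf3r* from -0.458 to 0.0775, *Cxcl9* from -0.21 to 1.40 and *Serpina3f* from -0.17 to 1.26. The causes were not tested. *Sbk3* was 0.11 with normexp background (adjusted p = 0.681) and 0 with 1 limit for all arrays.

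The counts of the lists at an unadjusted p moved as well. Over the alternatives without a single array left out, cholesterol synthesis had 1 to 9 higher genes (8 with the replicate block), glycolysis and HIF-1 targets 2 to 7 lower genes, targets of TTP 2 to 5, AU-rich element binding proteins 2 to 4, and NF-κB genes 1 to 4 higher genes.

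Genotype and slide coincide, and with them the lower share of spots well above background on MK2-/- arrays, so that dim genes carry least weight.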
